A study of Mus musculus with 4 samples.

Results

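The mRNAs of 8 synaptic genes, Camk2a, Itpka, Nrgn, Dlg4, Shank1, Ppp1r9b, Ddn and Map2, were followed across brain regions, and between trained and untrained mice, by spatial transcriptomics. They were chosen by symbol from a list of transcripts known to travel into dendrites, and all 8 were found among the 32285 genes counted in each section. Visium arrays capture polyadenylated RNA from tissue on barcoded spots 55 µm wide with centers 100 µm apart, and count it as unique molecular identifiers (UMIs), so that each spot holds several cells and the neuropil between them. Each of 4 mice gave 1 coronal section of 10 µm at the level of the dorsal hippocampus. Both groups were adult male ArcCreERT2::eYFPflx mice aged 3 to 4 months, in which the Arc promoter drives a Cre recombinase that 4-hydroxytamoxifen activates and that switches on eYFP. The 2 trained mice had learned active place avoidance, in which a zone of a rotating arena delivers a shock, whereas the 2 untrained mice had explored the same arena with the shock off. Every mouse of both groups received 4-hydroxytamoxifen and a retention test, was then housed singly, and was killed 3 days later.

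Most neuronal mRNAs stay near the nucleus, but a subset is packed into RNA granules, carried along microtubules into dendrites and translated near synapses. Signals in the 3′ untranslated region (UTR) and the proteins that bind them direct this transport and hold translation back until the synapse is active. The hippocampus is a favorable tissue for seeing it, because the cell bodies of CA1, CA3 and dentate gyrus (DG) neurons lie in thin layers while their dendrites fill the bands on either side. Camk2a encodes the α subunit of calcium/calmodulin-dependent kinase II, Itpka a kinase that phosphorylates inositol trisphosphate and bundles actin in spines, and Nrgn neurogranin, which binds calmodulin at rest. Dlg4 (PSD-95) and Shank1 are scaffolds of the postsynaptic density. Ppp1r9b (spinophilin) anchors protein phosphatase 1 to spine actin, Ddn (dendrin) is a postsynaptic protein, and Map2 stabilizes the microtubules of dendrites.

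Parts of the 3′ UTRs of these mRNAs were searched for short elements bound by RNA regulators. The 3′ UTRs are where localization and translation signals of such mRNAs reside. For each gene the transcript with the longest coding part in GENCODE vM21 (mouse build GRCm38) was taken, and other transcripts of the gene can end elsewhere. The 3′ UTRs of these transcripts ranged from 181 bases in Map2 (Map2-204) to 3235 bases in Shank1 (Shank1-203), and 6 of 8 exceeded the median of 731.5 bases over 21796 protein-coding genes. Of the 8, 7 had a 3′ UTR of at least 300 bases, and its last 300 bases were searched on the sense strand. Bases further upstream were not read, so an absence below holds for the window only. TTTTAT, the cytoplasmic polyadenylation element read by CPEB proteins, was found 3 times in Dlg4 and in no other of the 7, against 29.2% of 15323 such windows. TGTANATA, the Pumilio element, was found in Ppp1r9b and Ddn, against 9.59% of windows. The longer A2 response element bound by hnRNP A2 was found in none of the 7, and in 1 of the 15323 windows. The polyadenylation signal AATAAA was found in Itpka, Nrgn and Ddn and not in the windows of Camk2a, Dlg4, Shank1 and Ppp1r9b, against 69.9% of windows, and the Dlg4 transcript taken (Dlg4-204) stops short of the annotated end of the gene. Which ends are used in these sections was not measured. The 30 bases around the Dlg4 element nearest the transcript end and around the Pumilio elements of Ppp1r9b and Ddn are shown as the matches found, in the sense orientation with the element in capitals.
Dlg4, chr11:70045334-70045363 (+), 187 bases before the end: cattttatttgaTTTTATttttttgggaaa
Ppp1r9b, chr11:95006798-95006827 (+), 91 bases before the end: gaccccgtctcTGTATATAatatatatatg
Ddn, chr15:98803830-98803859 (-), 72 bases before the end: taatgaggtaaTGTATATAaggcgtcttgc
A match is a description of these letters and no evidence that a protein binds them.

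Sections held 2359 to 3055 spots and 3560294 to 10330015 UMIs, with untrained 1 the shallowest and trained 2 the deepest. The median per spot was 1936.5 UMIs in trained 1, 2493 in trained 2, 1048 in untrained 1 and 1851 in untrained 2. The array fixes the barcodes, and 1329 were used in all 4 sections. Spots were assigned to 11 regions by their scores on lists of marker genes, none of which holds any of the 8 mRNAs, and the spots 1 or 2 array steps from a hippocampal cell-body layer formed the hippocampal neighbours. Levels are given as CPM, the UMIs of a gene per 1000000 UMIs of the same region and section, and differences are on the log2 scale. With sums over spots, fewer cells of a type and less RNA per cell cannot be told apart.

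Across the 12 classes of spots the 8 mRNAs formed a steep and a shallow group. The highest region mean stood above the lowest by 14.3 times for Itpka, 11.9 for Ddn, 11.3 for Nrgn and 7.36 for Camk2a, but by 3.72 times for Dlg4, 3.36 for Shank1, 2.35 for Ppp1r9b and 2.12 for Map2. Testing each pair of regions adjacent in the order of a gene's levels gave 88 comparisons, of which 9 (10.2%) passed an adjusted p of 0.05 (edgeR with the section as a block). All 9 belonged to the 4 steep mRNAs, a group formed from these same means, so this is no further support for it. Over all genes the median pair had 14.4% of genes called, with a range over pairs of 2.29% to 30.0%. The pairs were steps in a member's own order and not in that of the other genes, so these shares cannot be compared with the 10.2%.

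**Figure D1:**
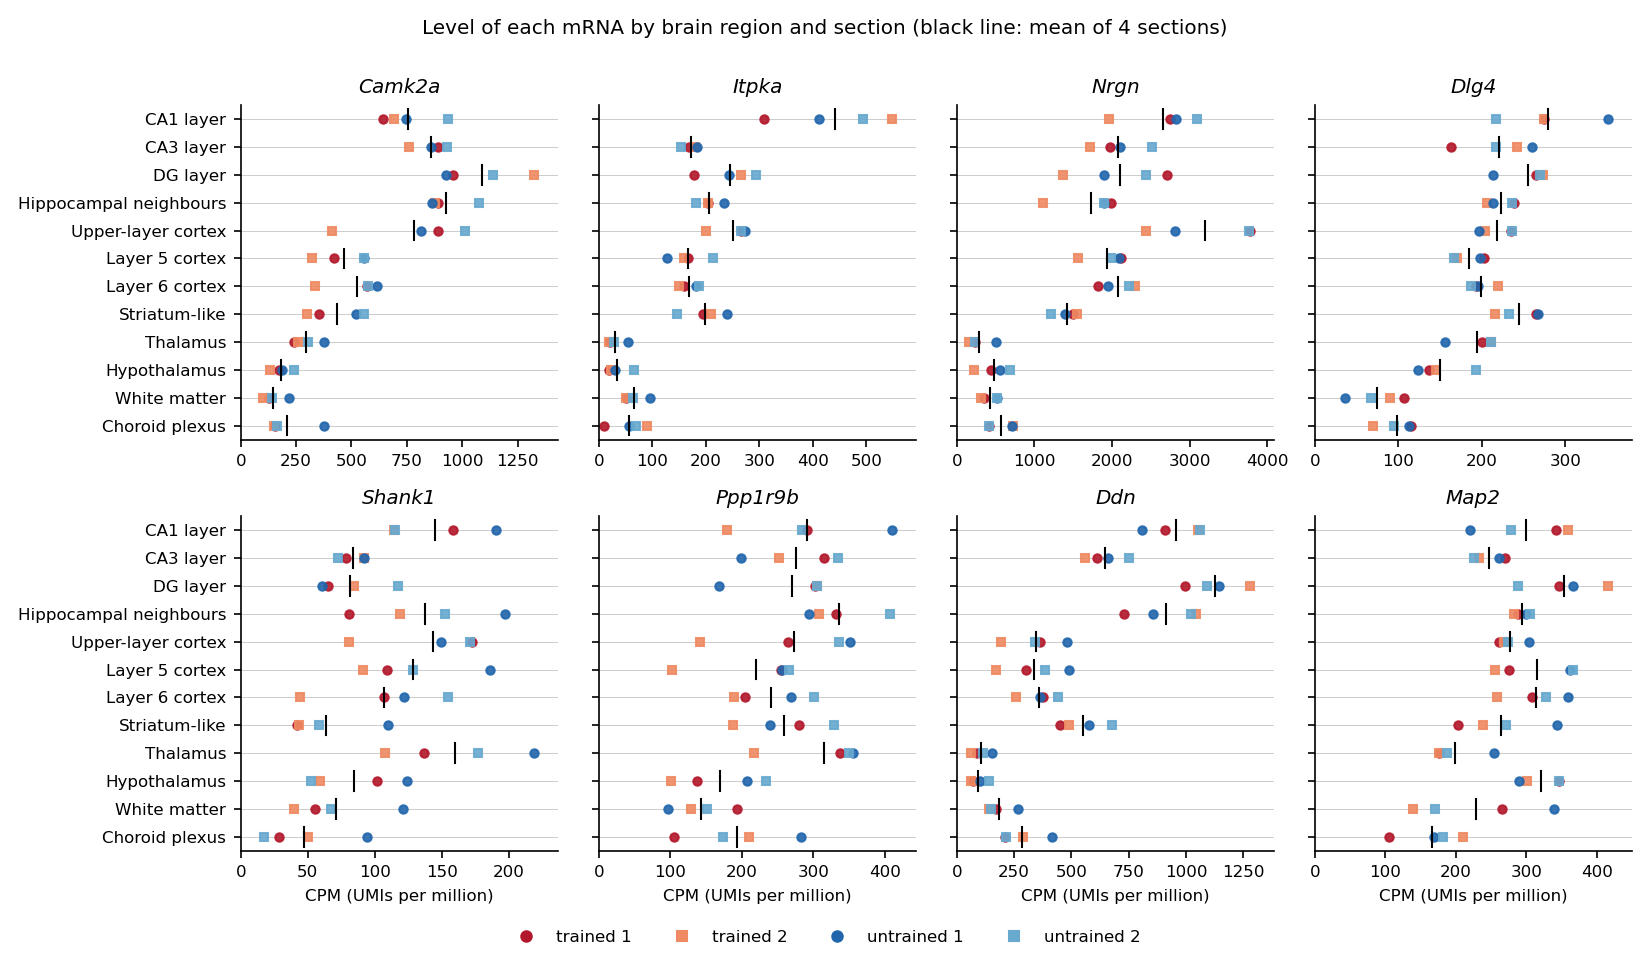
Level of each mRNA in the 12 classes of spots, in CPM (x axis, linear, from 0), with 1 point per section and a black line at the mean of the 4 sections. Itpka peaked in the CA1 layer at a mean of 440.4, Nrgn in upper-layer cortex at 3202, and Camk2a and Ddn in the DG layer at 1088 and 1127, whereas the levels of Map2 ranged from 167 to 354.

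Camk2a was highest in hippocampus. Its mean was 1088 ± 184 (SD, n = 4 sections, here and below) CPM in the DG layer, 927 ± 101 in the hippocampal neighbours, 861 ± 72.6 in the CA3 layer, 782 ± 259.6 in upper-layer cortex and 754 ± 128 in the CA1 layer, and none of these neighbours in the order differed by the test. The step from the CA1 layer to layer 6 cortex at 524 ± 127 was called, with a log2 difference of 0.58 (SE 0.159, adjusted p = 0.00864), and so was that from striatum-like spots at 433 ± 126 to thalamus at 295 ± 59.3, also 0.58 (SE 0.153, adjusted p = 0.00172). Layer 5 cortex lay between them at 465 ± 115. The lowest levels, 211 in choroid plexus, 182 in hypothalamus and 148 in white matter, were not separated by the tests of adjacent pairs.

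Itpka was highest in the CA1 layer. It measured 308, 549, 411 and 494 CPM there in trained 1, trained 2, untrained 1 and untrained 2, and 266, 200.3, 274 and 265 in upper-layer cortex, the next highest. The CA1 level was above that of upper-layer cortex in each section, and the difference of 0.84 (SE 0.165) passed with an adjusted p of 7.07e-05. Means from 246 in the DG layer to 166 in layer 5 cortex followed, with no call between neighbours. White matter was far lower at 65.5 ± 21.7 (log2 difference from layer 5 cortex 1.41, SE 0.237, adjusted p = 7.57e-07), and hypothalamus and thalamus were lowest at 34.2 ± 21.4 and 30.7 ± 16.

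Nrgn was highest in cortex and hippocampus. Upper-layer cortex had 3202 ± 682 CPM and the CA1 layer 2657 ± 492, followed by the DG layer at 2105 ± 596, the CA3 layer at 2075 ± 334 and layer 6 cortex at 2072 ± 223, and no step down to striatum-like spots at 1415 ± 146 was called. The drop from there to choroid plexus at 566 ± 175 was called (1.26, SE 0.203, adjusted p = 7.65e-07). Thalamus, at 283 ± 152, was below white matter at 428 ± 107 by 0.82 (SE 0.197, adjusted p = 0.000533).

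Ddn was also highest in hippocampus. The DG layer had 1127 ± 119 CPM, the CA1 layer 957 ± 123 and the hippocampal neighbours 913 ± 147, with no call between neighbours in this order. The CA3 layer had 645 ± 81.6, below the pooled neighbours of all 3 layers by 0.65 (SE 0.167, adjusted p = 0.00554). Against the spots around CA3 alone no difference was called (-0.044 after TMM scaling, adjusted p = 0.897), with 612, 558, 659.6 and 751 in the layer and 612, 497, 520.3 and 710.1 around it. The layer was level with those spots in trained 1 and above them in the other sections. Striatum-like spots at 549 ± 101 exceeded layer 6 cortex at 359.5 ± 76.6 by 0.74 (SE 0.157, adjusted p = 0.000185) (for Camk2a the means stood in the opposite order). White matter at 183 ± 56.9 exceeded thalamus at 105 ± 38.6 by 0.97 (SE 0.239, adjusted p = 0.00075), and hypothalamus was lowest at 94.5 ± 35.3.

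The remaining transcripts varied less between regions, with no call between neighbours in their order. Regions further apart in the order were not tested. White matter stood above a gray region for Map2, at 229 CPM against 198 in thalamus. It did so for Shank1 too, at 71.0 against 63.5 in striatum-like spots. Shank1 had its highest mean in thalamus, 160.0 ± 48.7 CPM, and Ppp1r9b had 315 ± 65.8 there, next to 335 ± 50.8 in the hippocampal neighbours. Both sat high in the region where Itpka and Nrgn sat lowest. Dlg4 ran from 279 ± 55.5 in the CA1 layer to 75.2 ± 30.6 in white matter, and Map2 from 354 ± 53.2 in the DG layer, with 321 ± 29.8 in hypothalamus, to 167 ± 44.1 in choroid plexus. The order of these 4 rests on few molecules in the small regions, with 2 to 21 UMIs for an mRNA in a section of choroid plexus and 3 to 67 in white matter.

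Likeness of pattern was described by Pearson's r over the 12 means on the log2 scale, among 6133 other genes that reached 50 CPM in at least 1 region. The points share sections and region borders, so r is a description. The likest genes were Rapgefl1 (r = 0.959), Dnajb5 (0.959) and Kalrn (0.954) for Camk2a. For Ddn they were 2010300C02Rik (0.985), Rin1 (0.967) and Icam5 (0.956), and for Dlg4 Dlg3 (0.954), Rap2b (0.933) and Camkv (0.928). Itpka and Nrgn were among the 3 likest genes of each other (0.945), with Sipa1l1 first for both (0.950 and 0.956), followed by Psd (0.935) for Itpka and Chrm1 (0.947) for Nrgn. Map2 was most like Vstm2a (0.930), Apex1 (0.930) and H1fx (0.926). The flatter Ppp1r9b had lower values with Shank3 (0.892), Mpv17l (0.881) and Coro2b (0.874), as did Shank1 with Dync1li1 (0.875), Coq2 (0.869) and Mff (0.866). Among the 8 themselves r ran from 0.049 between Shank1 and Ddn to 0.945.

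The hippocampal cell-body layers were next set against the neighbouring spots, whose share of dendrites was not measured. Most neighbours, 127 to 146 a section, were 1 array step from a layer. Spots led by CA1, CA3 or DG markers that were not layer spots could be among them. Over all 3 layers Nrgn and Itpka were higher in the layer and Ppp1r9b was lower, while the other 5 did not pass the test. These 3 calls among 8 mRNAs compare with 420 of 6244 genes tested (6.73%, of which 2.31% higher in the layer and 4.42% lower). Layers held 90 to 111 spots a section and neighbours 138 to 173, and a member's value rested on 23 to 1182 UMIs in the layers and 24 to 592 in the neighbours. Layer spots were richer in RNA, with medians of 1694.5 to 4438 UMIs against 837 to 2266.5, and every value is therefore a share of the UMIs. The markers whose scores had assigned the spots differed by that assignment: CA1 markers summed to 480.3 to 728 CPM in the layers and 215 to 363 in the neighbours, CA3 markers to 1001 to 1130.4 and 568 to 717, and DG markers to 434 to 737 and 218 to 451. These sums describe the classes and are no test of them.

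**Figure D2:**
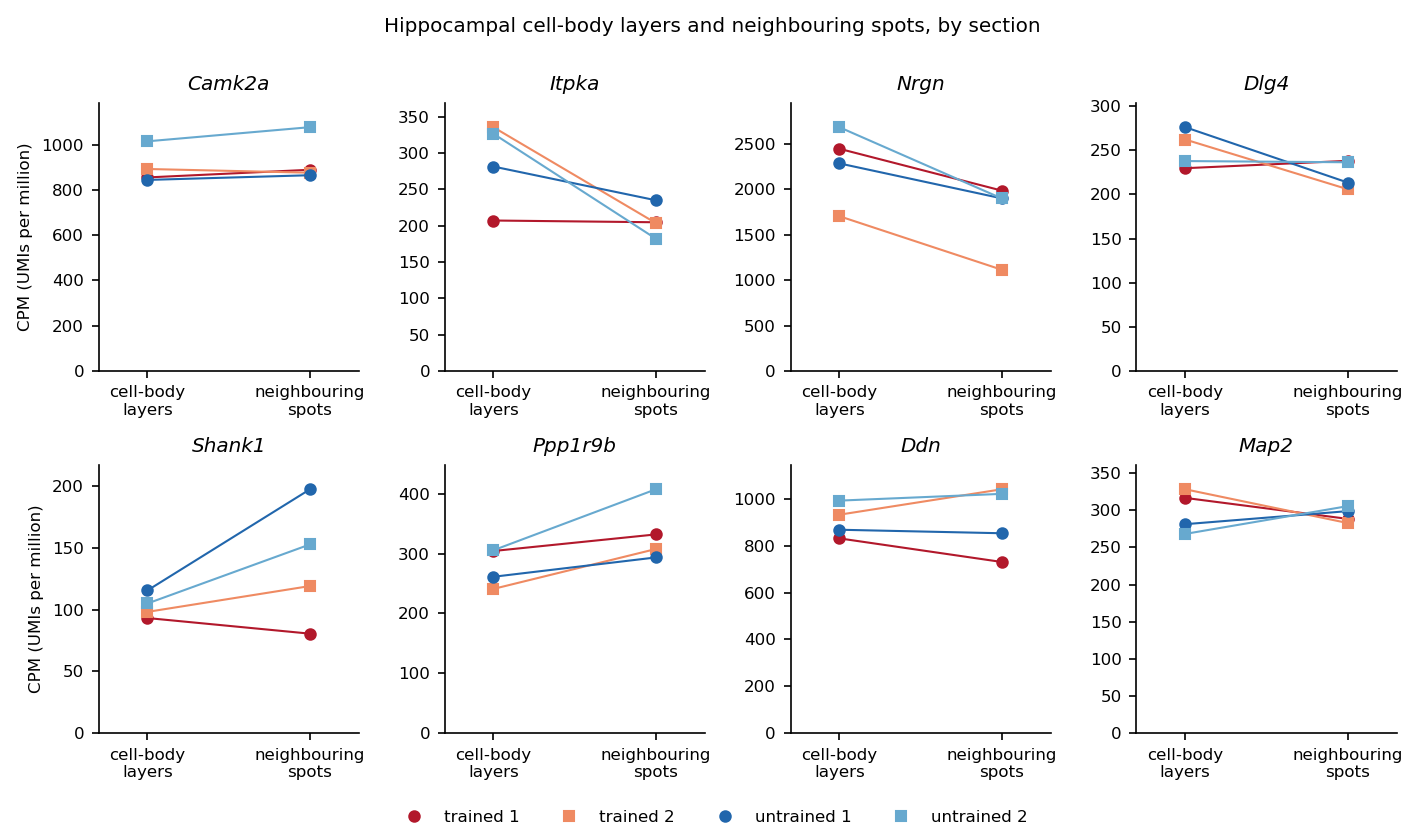
Level of each mRNA, in CPM (y axis, from 0), in the cell-body layers and in the neighbouring spots, with a line joining the values of each section. Nrgn lines fell toward the neighbours in each of the 4 sections and Ppp1r9b lines rose in each, whereas those of Ddn and Map2 crossed.

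Nrgn measured 2447, 1704, 2286 and 2685 CPM in the layers of trained 1, trained 2, untrained 1 and untrained 2, and 1986, 1114, 1900.3 and 1899.5 in the neighbours. It was higher in the layer in every section, by a log2 difference of 0.28 (SE 0.061, adjusted p = 0.000144). Itpka measured 207, 336, 281 and 327 in the layers and 205, 203, 235 and 182 in the neighbours, a difference of 0.37 (SE 0.118, adjusted p = 0.0255) that was nearly absent in trained 1. A layer value above the neighbour value in all 4 sections, as for Nrgn and Itpka, was found in 21.9% of genes.

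Camk2a, the best known of the dendritic mRNAs, was about as abundant on either side. It measured 855, 892, 844 and 1015 CPM in the layers and 889, 876, 865 and 1077 in the neighbours, and its difference of -0.18 (SE 0.0708, adjusted p = 0.127) was not called. Ddn likewise measured 832, 933, 869 and 994 against 731, 1042, 854 and 1023 (-0.15, SE 0.0709, adjusted p = 0.199). For both, the sections did not share a direction.

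Ppp1r9b was lower in the layers than in the neighbouring spots. Its 304, 241, 261 and 306 CPM in the layers lay below the 332, 308, 294 and 408 of the neighbours in every section, by -0.42 (SE 0.104, adjusted p = 0.00177), and 6.52% of genes were lower in the layer in all 4 sections. Shank1 had 93.2, 98.2, 116 and 105 in the layers and 80.5, 119, 198 and 153 in the neighbours. Trained 1 ran against the other sections, and the difference of -0.48 (SE 0.168, adjusted p = 0.0547) fell short. It passed without trained 1 (-0.64, adjusted p = 0.0238) and with neighbours 1 step away (-0.51, adjusted p = 0.0462).

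Dlg4, at 229.8, 262, 276 and 238 CPM in the layers and 238, 206, 214 and 237 in the neighbours, differed by 0.022 (SE 0.119, adjusted p = 0.961). Map2, at 317, 328, 281 and 268 against 288, 283, 299 and 306, differed by -0.085 (SE 0.106, adjusted p = 0.77), and was higher in the layer in the trained sections and lower in the untrained ones. The differences are relative to the typical gene, since TMM scaling set the median of all genes near 0. On library totals alone that median was 0.15, and all differences moved up with it: Nrgn stood at 0.43, Itpka at 0.51, Camk2a at -0.04, Map2 at 0.053 and Ppp1r9b at -0.28 with an adjusted p of 0.0585.

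The calls depended on sections and settings. None of the 3 held with DESeq2 (adjusted p = 0.0778 for Nrgn, 0.617 for Itpka and 0.221 for Ppp1r9b), and none held in spots thinned to 500 UMIs, where Nrgn differed by 0.07 (adjusted p = 0.867), Itpka by 0.14 (0.878) and Ppp1r9b by -0.51 (0.307). Without the section block none held either (adjusted p = 0.516 for Nrgn, 0.357 for Itpka and 0.14 for Ppp1r9b). Thinning also dropped the spots under 500 UMIs, 0 to 10 layer spots and 7 to 46 neighbours a section, so that depth and the choice of spots changed together. Without trained 2, Nrgn (0.21, adjusted p = 0.0506) and Itpka (0.24, adjusted p = 0.484) were lost, and without untrained 2, Itpka (0.28, adjusted p = 0.302) and Ppp1r9b (-0.36, adjusted p = 0.0625).

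Other RNAs showed what the contrast resolved. Bc1, a short noncoding RNA carried into dendrites, measured 7248, 7272, 24899 and 10792 CPM in the layers and 15615, 9786, 51849 and 22899.7 in the neighbours, a difference of -1.07 (SE 0.0622, adjusted p = 6.76e-62). Among 14 other dendritic RNAs 2 were higher in the layer, the glutamate receptor subunits Gria2 (0.46) and Gria1 (0.43), and 2 lower, Bc1 and the elongation factor Eef2 (-0.30), with a median of -0.043. Of 33 other postsynaptic genes tested 8 were higher, led by the receptor subunit Grin2a (0.54) and the scaffold Cnksr2 (0.50), and none lower, with a median of 0.20. Of 24 presynaptic and general neuronal genes 7 were higher, led by Syn2 (0.44) and Olfm1 (0.43), and none lower, with a median of 0.13. The median of the 8 mRNAs was -0.12 and that of all genes 0.0079. No call was made among 5 nuclear-retained RNAs (median 0.16) or the 4 immediate early genes tested (median 0.43). In the CA1 layer alone 3 of 4 immediate early genes tested, 1 of 5 nuclear-retained RNAs and 9 of 24 other postsynaptic genes were called higher. Of 24 presynaptic and general neuronal genes 1 was called higher there. Gria1 and Gria2 stand in both the dendritic and the postsynaptic list.

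Genes of other cell types moved with the same contrast. The 10 astrocyte markers summed to 1878 to 3128 CPM in the layers and 2842 to 4203 in the neighbours, the 9 white matter markers to 1774 to 2918 and 3304 to 6556, the 8 interneuron markers to 804 to 1173 and 1126 to 1908, and the 4 hemoglobin genes to 264 to 516 and 786 to 1362. The 6 microglial markers (217 to 337 and 306 to 519) and the 4 endothelial markers (75.4 to 152 and 124 to 208) were also higher in the neighbours. Their part in the members' differences was not tested.

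Within single fields, the CA1 layer showed 3 calls, the CA3 layer 1 and the DG layer none. In CA1, against a background of 207 of 2124 genes (9.75%, of which 3.86% higher in the layer and 5.89% lower), Itpka differed by 0.63 (SE 0.161, adjusted p = 0.00179). It measured 308, 549, 411 and 494 CPM in the layer and 237, 267, 336 and 224 in the spots around it. Nrgn, at 2741, 1955, 2830.0 and 3100.3 against 2024, 1438, 2030.1 and 2069, differed by 0.31 (SE 0.0926, adjusted p = 0.0102). Both were higher in the layer in all 4 sections, as were 23.0% of genes. Neither call held with DESeq2 (adjusted p = 0.549 for Itpka and 0.352 for Nrgn) or without the section block (0.0901 and 0.311). In thinned spots Nrgn was not called (0.20, adjusted p = 0.601) and Itpka had too few UMIs to be tested, and the Itpka call was also lost without trained 2 (0.46, adjusted p = 0.198). Camk2a went the other way, at 642, 693, 748 and 934 in the layer and 1087, 749, 884 and 685 around it (-0.33, SE 0.111, adjusted p = 0.031). It was lower in the layer in 3 of 4 sections, with untrained 2 opposed, and the call held under 2 of the alternatives run, without untrained 2 (-0.50, adjusted p = 0.0023) and with a stricter layer score (-0.38, adjusted p = 0.00742). It was lost under the others, among them DESeq2 (adjusted p = 0.746), no section block (0.31), library totals alone (-0.16, adjusted p = 0.386), the sums without trained 1 (-0.13, adjusted p = 0.723) and thinned spots (0.020, adjusted p = 0.977). The other members did not pass: Ppp1r9b had -0.36 (adjusted p = 0.254), Shank1 -0.34 (0.542), Ddn -0.20 (0.273), Dlg4 0.076 (0.902) and Map2 0.012 (0.991).

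In CA3 (229 of 2171 genes called, 10.5%, of which 3.92% higher and 6.63% lower) Nrgn measured 1971, 1713, 2102 and 2514 CPM in the layer and 1664, 859.6, 1774 and 1713 around it. It was higher in every section, as were 24.3% of genes (0.36, SE 0.098, adjusted p = 0.00495), and the call was lost without trained 2 (0.20, adjusted p = 0.41), with DESeq2 (adjusted p = 0.428), without the section block (0.413) and in thinned spots (0.11, adjusted p = 0.855). Ppp1r9b, at 315, 252, 199 and 335 in the layer and 316, 354, 355 and 418 around it, was lower in every section, as were 7.65% of genes, but fell just outside the threshold (-0.49, SE 0.176, adjusted p = 0.0517). Shank1 had too few UMIs in CA3 to be tested. The dentate gyrus had the fewest calls of any kind, 39 of 2127 genes (1.83%), and no member among them. There Ppp1r9b had -0.42 (SE 0.167, adjusted p = 0.281), Shank1 -0.59 (SE 0.289, adjusted p = 0.413), Nrgn 0.21 (SE 0.101, adjusted p = 0.394) and Camk2a -0.012 (SE 0.118, adjusted p = 0.98). Whether the fields differ from each other was not tested. The noncoding Bc1 was lower in each layer, by -1.07 in CA1, -1.34 in CA3 and -0.78 in DG.

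**Figure D3:**
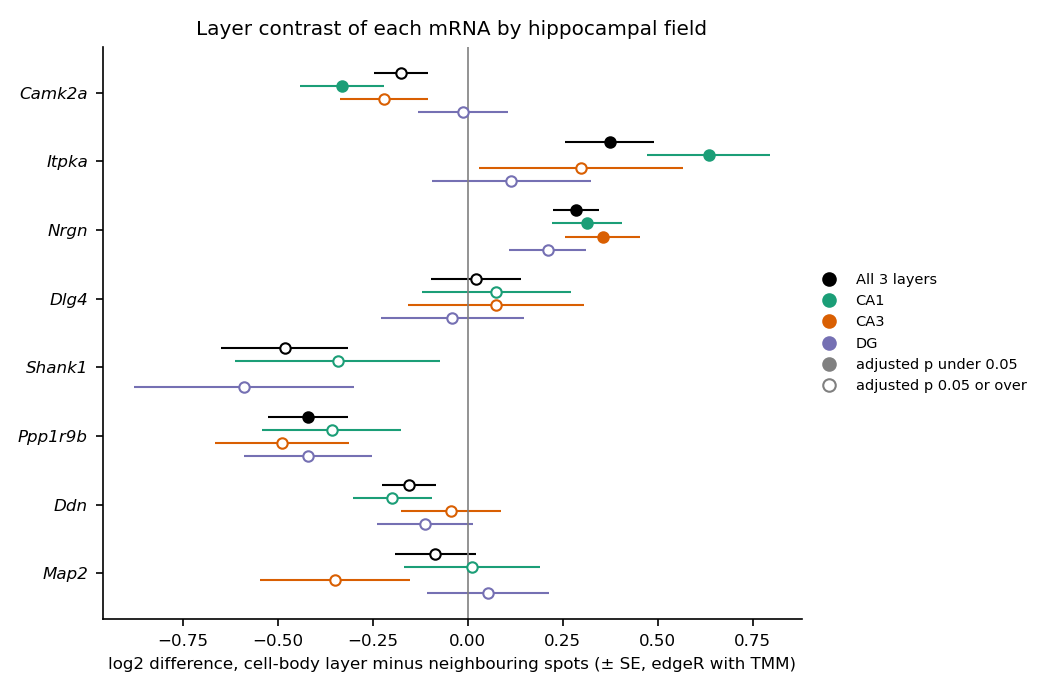
Log2 difference of cell-body layer minus neighbouring spots (x axis, with SE, 4 sections) for each mRNA in all layers together and in CA1, CA3 and DG, where filled points have an adjusted p under 0.05. Nrgn was above 0 in each field, with 0.31 in CA1, 0.36 in CA3 and 0.21 in DG, and Ppp1r9b below 0 in each, with -0.36, -0.49 and -0.42.

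The spots around CA1 were also split by array row, after the data had been seen. Spots with a higher row number than the nearest CA1 layer spots were taken as the apical side, meant to face the dentate gyrus. Those with a lower row number were taken as the basal side. The position of the dentate gyrus was not used, so the sides are approximate where the layer curves. Against the apical side (101 of 1322 genes called, 7.64%) Camk2a was lower in the CA1 layer by -0.49 (SE 0.139, adjusted p = 0.00834). Its apical level was 1057, 966, 986 and 637 CPM, above the layer in 3 sections and below it in untrained 2. Nrgn was higher in the layer than on the apical side by 0.36 (SE 0.112, adjusted p = 0.0193), while Itpka missed the threshold (0.62, SE 0.22, adjusted p = 0.0541). Against the basal side (110 of 1181 genes, 9.31%) no member was called: Camk2a, at 794, 509.6, 834 and 769.9 there, differed by -0.0071 (adjusted p = 0.995), Itpka by 0.62 (adjusted p = 0.0845) and Nrgn by 0.35 (adjusted p = 0.0917). The direct comparison of apical with basal spots (7 of 641 genes, 1.09%) gave 0.44 for Camk2a (SE 0.186, adjusted p = 0.307), so that the sides were not shown to differ. The apical call of Camk2a was lost without trained 1, trained 2 or untrained 1, and that of Nrgn without trained 2, untrained 1 or untrained 2. A member's value rested on 4 to 100 UMIs on the apical side and 1 to 80 on the basal side.

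Whether training altered the distribution between layer and neighbours was tested as an interaction. None of the 8 mRNAs and none of 7321 genes (0%) was called by edgeR or by DESeq2 (346 genes had an unadjusted p under 0.05 in edgeR). The members' interaction terms, positive where the trained mice had the larger share in the layer, ran from -0.12 for Itpka to 0.59 for Shank1 (SE 0.331, adjusted p = 0.957). Shank1 stood at 93.2 and 98.2 in the layers and 80.5 and 119 in the neighbours of trained mice, and at 116 and 105 against 198 and 153 in untrained mice. Map2 had the next largest term, 0.37 (SE 0.218, adjusted p = 0.957). The SEs of these terms ran from 0.12 to 0.331, and the missing calls do not show that the terms are 0.

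Over whole sections all 8 mRNAs had lower means in the trained mice, with 0 of 8 called by edgeR and 1, Ddn, by DESeq2. The background in edgeR was 2 of 13733 genes (0.0146%), and DESeq2 called 20 genes. The log2 differences of trained minus untrained ran from -0.64 for Ddn to -0.11 for Dlg4, with a median of -0.50 against 0.0086 for all genes, and 7 of 8 had an unadjusted p under 0.05, as had 1078 genes in all. For the same 7, each trained section lay below each untrained one, which held for 12.1% of genes, while 28.9% lay the other way. With 2 sections a group an exact permutation test of a single mRNA cannot go below p = 0.333.

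**Figure D4:**
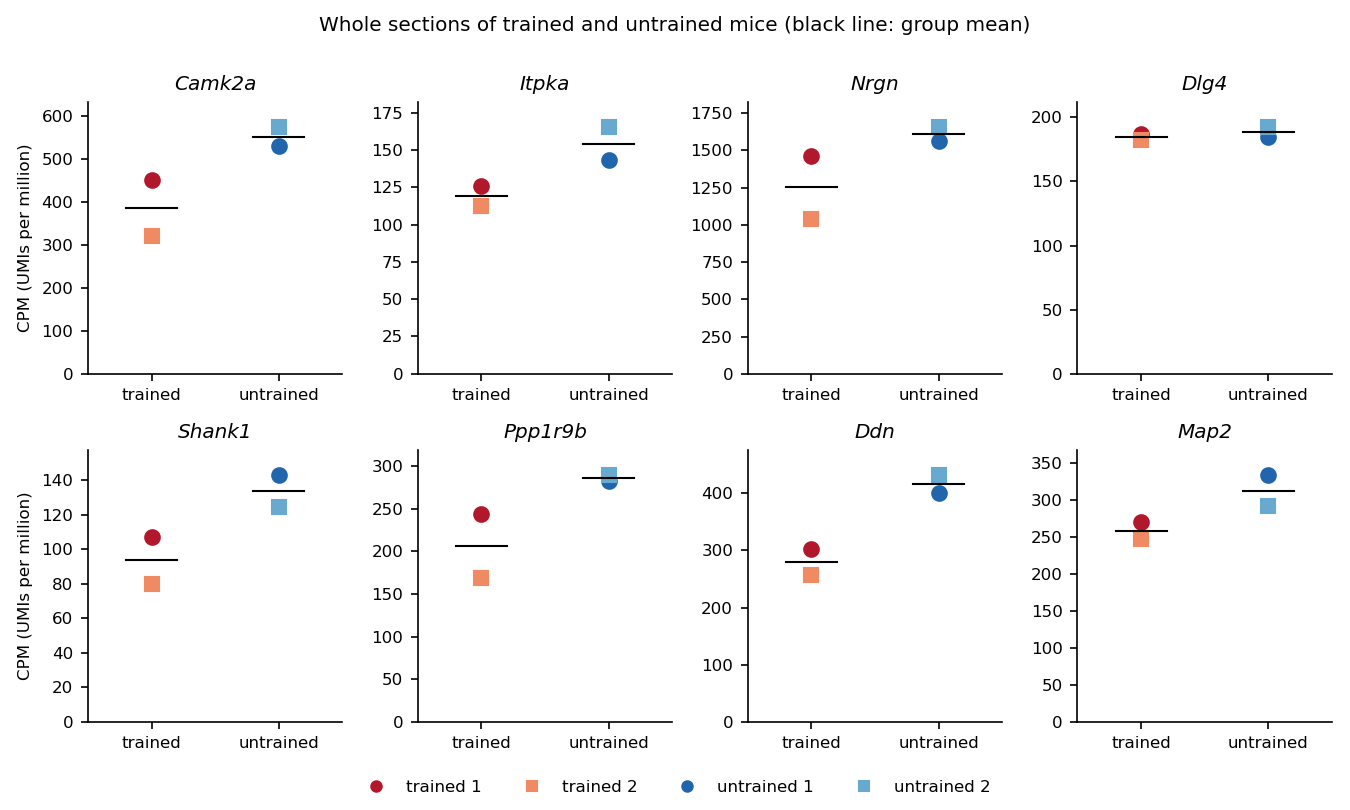
Level of each mRNA over whole sections, in CPM (y axis, from 0), with 1 point per section and a black line at the group mean. The groups overlapped for Dlg4, at 182 to 187 in trained and 185 to 193 in untrained sections, and not for the others.

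Ddn measured 302 and 257 CPM in trained 1 and trained 2 and 399 and 432 in untrained 1 and untrained 2 (-0.64, SE 0.136, adjusted p = 0.353 in edgeR and 0.00796 in DESeq2). Camk2a measured 450.4 and 320.1 against 528 and 574 (-0.59, SE 0.175, adjusted p = 0.562). Trained 2 was the lowest section for both, as it was for each of the 8. Itpka measured 126 and 112 against 143 and 166 (-0.45, SE 0.132, adjusted p = 0.539), and Nrgn 1462 and 1041 against 1559.7 and 1657 (-0.43, SE 0.18, adjusted p = 0.601). In Nrgn, as in Camk2a and Ppp1r9b, the gap between the trained sections was wider than the gap from trained 1 to either untrained section. Without trained 2, and so with 1 trained section, the differences were -0.16 for Nrgn, -0.32 for Camk2a, -0.26 for Ppp1r9b, -0.34 for Shank1 and -0.040 for Dlg4, each smaller by over 1.5 times, and -0.49 for Ddn, -0.33 for Itpka and -0.23 for Map2.

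Among the scaffolds, Shank1 measured 107 and 79.8 in trained and 143 and 124 in untrained sections (-0.59, SE 0.169, adjusted p = 0.536). Dlg4 hardly varied, at 187 and 182 against 185 and 193 (-0.11, SE 0.114, adjusted p = 0.836). Ppp1r9b measured 244 and 168 against 283 and 289.6 (-0.55, SE 0.18, adjusted p = 0.582) and Map2 270.4 and 246 against 333 and 291 (-0.35, SE 0.13, adjusted p = 0.584).

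Without trained 1, 7 of the 8 passed, with 811 genes in all, but the trained group was then trained 2 alone, assumed to vary as the untrained pair did. With the other sections left out in turn none passed. What the sections contained also differed. Trained 2, the lowest section, had 7277 CPM of the 9 white matter markers against 4337 to 4837 in the others, 2964 of the 8 hypothalamic markers against 1449 to 2106, and 1167 of the 8 thalamic markers against 659.7 to 762. The part of this composition in the whole-section values was not tested. In the same sums none of 14 other dendritic RNAs, 35 other postsynaptic genes or 24 presynaptic and general neuronal genes was called, and their medians were -0.19, -0.23 and -0.13, with 33 of the 35 postsynaptic genes below 0. The 5 nuclear-retained RNAs had a median of -0.013, and the 6 immediate early genes, of which 6 were above 0, one of 0.33, again with no call.

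Within the hippocampus no member was called. In the cell-body layers 0 of 8 members and 0 of 7489 genes (0%) were called by edgeR (362 genes had an unadjusted p under 0.05), and differences ran from -0.26 for Nrgn to 0.25 for Map2. Each trained section was below each untrained one for Shank1 and above it for Map2, against 17.5% and 17.6% of genes. Camk2a, at 855 and 892 against 844 and 1015, and Ddn, at 832 and 933 against 869 and 994, overlapped between the groups. In the neighbouring spots (1 of 5464 genes called, 0.0183%) all 8 differences were below 0, from -0.039 for Itpka to -0.79 for Shank1 (SE 0.281, adjusted p = 0.807), and for Shank1 and Map2 the groups did not overlap, against 16.0% of genes with trained below. In the single layers no member was called either, beside 0 of 3058 genes in CA1 (0%), 3 of 3238 in CA3 (0.0926%) and 0 of 3632 in DG (0%). Bc1 was called lower in trained mice in CA3 (-1.28) and in the neighbouring spots (-1.60) by edgeR, whereas DESeq2 called 0 genes in either. Without untrained 2 edgeR called 0 genes in the neighbouring spots, where the Bc1 level of untrained 1 stood far above the others.

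**Figure D5:**
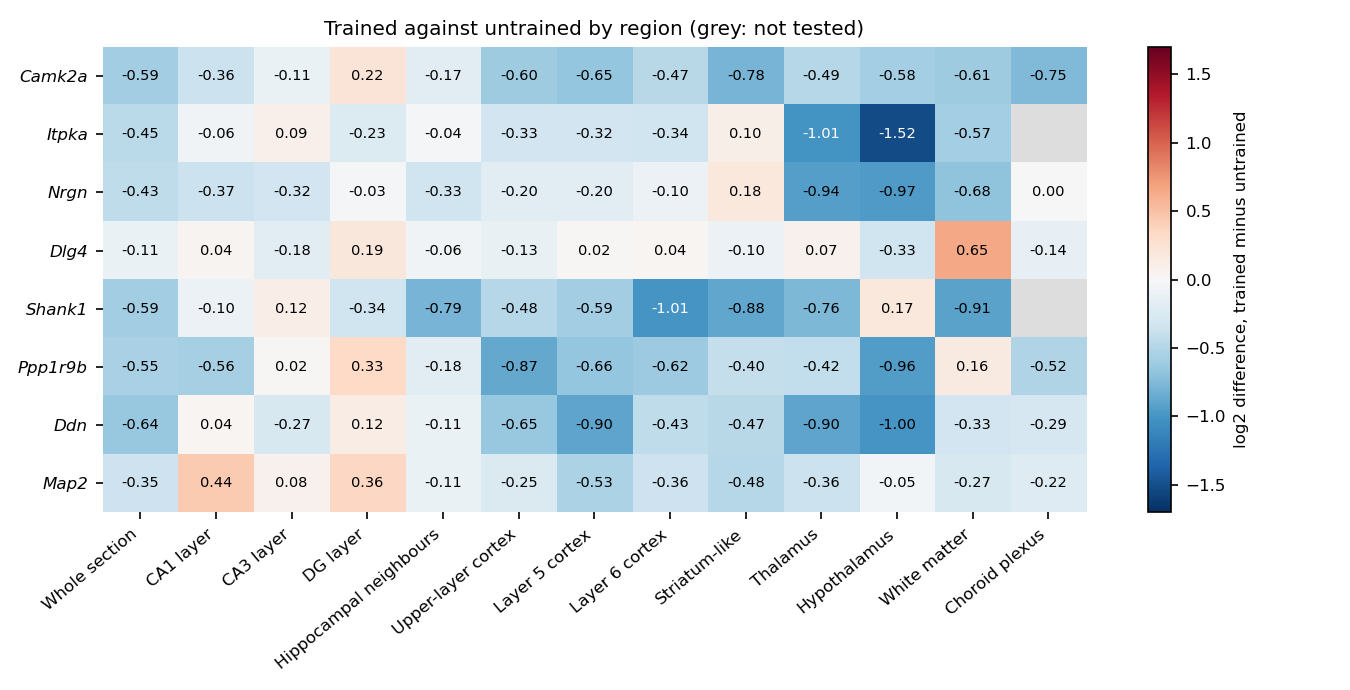
Log2 difference of trained minus untrained (color and printed value) for each mRNA (rows) over whole sections and in each class of spots (columns), with grey where an mRNA was not tested. No cell had an adjusted p under 0.05 in edgeR (Ddn over whole sections had 0.00796 in DESeq2), and values ran from -0.79 to 0.44 in the hippocampal layers and neighbours and from -1.52 to 0.65 in the other columns.

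Outside the hippocampus most values were below 0, again with no member called. The backgrounds were 0 of 7872 genes in upper-layer cortex (0%), 16 of 7784 in layer 5 cortex (0.206%), 0 of 7370 in layer 6 cortex (0%), 8 of 5964 in striatum-like spots (0.134%), 0 of 8684 in thalamus (0%), 0 of 8049 in hypothalamus (0%), 2 of 4760 in white matter (0.0420%) and 0 of 1791 in choroid plexus (0%), where Itpka and Shank1 had too few UMIs. The lowest adjusted p was that of Camk2a in striatum-like spots, 0.102, at 356 and 298 CPM in trained and 521 and 558 in untrained sections (-0.78, SE 0.189). Ddn in layer 5 cortex followed with 0.156, at 303 and 172 against 489 and 385 (-0.90, SE 0.251). Thalamus had 7 of 8 mRNAs with no trained section above an untrained one, Dlg4 being the exception, against 13.0% of genes. There Nrgn measured 229 and 163 against 505 and 236, with untrained 1, the shallowest section, far above the rest. The largest difference of all, -1.52 for Itpka in hypothalamus, rested on 18.3 and 22.4 against 31 and 65.3. Untrained 1 gave 59 hypothalamic spots and 33 layer 5 spots, against 143 to 210 and 118 to 180 in the others.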

How the data were processed

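The values that the authors deposited are raw UMI counts for each gene in each spot over tissue, not normalized. The study's methods name Space Ranger and mm10, the count file header names Space Ranger 1.2.2, and the submitters' processing notes name Cell Ranger 8, STAR and mm39. The single-nucleus data and images were not used here. Every deposited column of values used here belonged to 1 section (columns without a sample: 0).

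One spot of trained 1 without UMIs was dropped. Marker UMIs were summed over a spot and its 6 array neighbours, weighted by 0.5 (0.15 for the hippocampal layers). Their residuals (observed minus expected UMIs, over the root of the variance) were summed per list. This sum, divided by its 98.5% quantile in the section, was the spot's score. A spot was assigned to the leading list above 0.35 in patches of at least 8 spots (4 for layers). A layer spot also had to score above the mean of its array neighbours. Neighbours were spots 1 or 2 steps from a layer that no region outside the hippocampus led. They lay within the convex outline of the layer spots or 1 step from one. Counts were summed per class and section and tested with edgeR 4.0.16 (filterByExpr, TMM, glmQLFit, glmQLFTest, two-sided) in R 4.3.3, adjusted by Benjamini-Hochberg over all genes tested, at 0.05. Counts of genes called, other than those between adjacent regions, leave out the region markers. Layer contrasts used the section as a block (3 residual degrees of freedom) and training contrasts had 2. The prior degrees of freedom were infinite for the pooled, CA1 and CA3 layer contrasts and for training in the CA3 layer, so that all genes shared 1 trend of spread there. The spot sums stem from 1 section per mouse, and p-values rest on the spread between these sections. In the contrasts with infinite prior degrees of freedom that spread is the trend over all genes, and a gene's own spread has no weight. DESeq2 1.42.0 was an alternative. The scripts were tested on simulated data. Of simulated 2-fold changes, 92.4% were recovered in the layer contrast and 74.2% in training over whole sections. In the interaction of layer and training 23.7% were recovered, and 66.7% of 4-fold changes.

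The 8 members are named throughout; of each comparison list, at most the 2 called genes with the largest difference in each direction are named. Members, lists and tests were chosen with earlier results of these data known.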

Additional observations from a re-analysis of the deposited data

How the results depend on the processing

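From 3 members in all layers together, DESeq2, thinned spots and sums without the section block each left 0, and neighbours 2 steps away (7 to 27 spots) left 1. From 3 in CA1 the same settings left 0, 0, 0 and 1, and from 1 in CA3 they left 0. Leaving out each section in turn gave 1 to 4 calls in all layers, 1 to 3 for the CA1 layer, 0 to 2 for CA3 and 0 to 0 for DG, with 0 to 2 on the apical and 0 to 1 on the basal side of CA1. Some differences changed sign. Dlg4 (0.022) ranged from -0.088 without trained 2 to 0.092 without trained 1, was -0.0057 without untrained 1 and -0.060 with neighbours 2 steps away. In CA1 (0.076) it ranged from -0.063 without untrained 1 to 0.22, and in CA3 (0.075) from -0.24 without trained 2 to 0.38 without trained 1. Map2 (-0.085) was 0.11 in thinned spots, and 0.053 without TMM, which shifted all genes by 0.14 (0.16 in CA3). In CA1 (0.012) it was -0.039 with DESeq2 and -0.023 with a stricter layer score, and ranged from -0.13 without trained 2 to 0.087. Camk2a in CA1, called at -0.33, was 0.020 in thinned spots, and in CA3 (-0.22) was 0.13 with neighbours 2 steps away. Ddn in CA3 (-0.044) was 0.087 without the filter, 0.11 without TMM and 0.19 with neighbours 2 steps away, and ranged from -0.070 to 0.0067 without trained 1. None of these 4 was called under the alternative, and apart from that shift the cause was not tested. Over all genes the settings gave 42 to 650 calls in all layers (420 as reported), 24 to 261 in CA1 (207), 25 to 301 in CA3 (229), 0 to 49 in DG (39) and 0 to 1 for the interaction. The lowest counts of all layers, CA1 and CA3 were those of thinned spots, which left 1039, 296 and 227 genes to test instead of 6291, 2143 and 2188.

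For training over whole sections, from 0 members called, DESeq2 called 1 (Ddn, adjusted p = 0.00796), beside 20 of 13810 genes. The fit with no filter on low counts called 4, beside 199 of 20060 genes. Outside the hippocampus, out of 62 tests of a member in a region, no filter gave 1 call (119 of 123917 tests of all genes) and leaving out a section 0 to 16, with 16 without trained 1 (557 of 56064) and 1 without untrained 2 (56 of 60989). Leaving out a section left 1 in its group, assumed to vary like the other group. The same holds in the neighbouring spots and in the layers, and calls with a section left out are not counted for them here. Sections of the same replicate number did not deviate together (correlation 0.0309 over 8810 genes), so that the numbers name sections and pair nothing. With a replicate block 2 members (Shank1 and Ddn) were called over whole sections and 7 values outside the hippocampus, beside 42 of 13810 genes and 180 of 52613 tests of a gene in a region. Across regions 8 to 9 of 88 adjacent pairs were called with a section left out. In the small classes a member had few UMIs, down to 1 in a section of choroid plexus.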
